A study of Mus musculus with 7 samples.

Results

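Transcripts of the chitinase family and of the resistin-like proteins were followed in whole lung of wild type and Scgb3a2 knockout mice. The genes were chosen by symbol (Chia1, Chil1, Chil3, Chil4, Chit1, Retnla and Retnlg), with the knockout against wild type values of these libraries already known, so that this contrast is given for them as a description. Of the 7 symbols, 6 were found among the 28828 entries of the count table, and Chit1 was not analysed here. There were 4 wild type libraries (WT2, WT3, WT4 and WT6, named by genotype and the number in their titles) and 3 knockout libraries (KO3, KO4 and KO5), all from lung of C57BL/6 mice. The knockout group lacks intact Scgb3a2, the gene of a small secretoglobin made mainly by airway secretory cells, and no agent or other allele is named for either group. The sources used here give no age, sex, litter or collection date, nor the part of the gene that was removed. Nor do they tie a library to 1 mouse, so that spreads are those between libraries.

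Chitinases of the glycosyl hydrolase family 18 cut chitin, the polymer of insect cuticle, mite shells and fungal walls, and mammals make them although they hold no chitin themselves. Chia1 (acidic mammalian chitinase) is the active enzyme of the airways, whereas Chil1 (BRP-39, the mouse counterpart of YKL-40), Chil3 (Ym1) and Chil4 (Ym2) kept the fold and the binding of sugars but not the cleavage. Retnla (RELM-alpha, also FIZZ1) and Retnlg (RELM-gamma) are small cysteine-rich secreted proteins related to resistin. In mouse lung, Chil3 is a main product of alveolar macrophages, Retnlg of neutrophils, and Chia1, Chil3, Chil4 and Retnla are known targets of interleukin 4 and interleukin 13 acting through Stat6 in allergic and parasitic inflammation.

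The genes lie in 3 clusters of related copies. On chromosome 3, Chia1 (106113229 to 106132120, plus strand), Chil3 (106147554 to 106167564, minus strand) and Chil4 (106201490 to 106219507, minus strand) follow each other with gaps of 15.4 and 33.9 kb. Retnla (chromosome 16, 48842551 to 48844461, plus strand) and Retnlg (48872621 to 48874496, plus strand) are 28.2 kb apart. Chil1 lies on chromosome 1 (134182176 to 134190181, plus strand). All are protein-coding in the GENCODE M21 annotation of GRCm38, from which these positions were taken.

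Chil3 and Chil4 are the most similar pair, and their transcripts share 94.4% of 1538 aligned bases. Of the 1490 windows of 50 bases in the Chil3 transcript, 275 (18.5%) also occur letter for letter in Chil4. A read that lies wholly within such a window cannot be assigned to 1 gene by its letters. Longer reads or read pairs can reach a base that differs. Retnla and Retnlg share 84.5% of 587 aligned transcript bases but no window of 50 bases. Chia1 shares 71.1% with Chil3 and 59.5% with Chil1, again with no common window of 50 bases. The likeness of Chil3 and Chil4 reaches into the DNA in front of them. The sequences just upstream of both starts are shown because the levels of these 2 genes differed widely, and capitals mark mismatches between the aligned copies. They run 5′ to 3′ on the strand of the gene, from RefSeq sequences of GRCm38.p6 that stop before the first base transcribed in either RefSeq or GENCODE. They lie at chr3:106167565-106167814 for Chil3 and at chr3:106219508-106219729 for Chil4, both on the minus strand.
Chil3: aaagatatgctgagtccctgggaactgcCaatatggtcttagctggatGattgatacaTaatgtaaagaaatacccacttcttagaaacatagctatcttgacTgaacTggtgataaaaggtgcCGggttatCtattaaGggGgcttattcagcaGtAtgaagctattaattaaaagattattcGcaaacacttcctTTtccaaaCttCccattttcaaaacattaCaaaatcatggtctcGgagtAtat
Chil4: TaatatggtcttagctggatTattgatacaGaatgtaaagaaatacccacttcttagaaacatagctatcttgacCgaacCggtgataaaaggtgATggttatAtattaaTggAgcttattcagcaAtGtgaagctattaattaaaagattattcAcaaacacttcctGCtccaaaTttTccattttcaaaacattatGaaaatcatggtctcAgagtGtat
These upstream sequences matched at 91.0% of 221 aligned bases, with 20 mismatches and 2 gaps. Bases set against a gap, and the front of the Chil3 sequence that lies outside the alignment, are in small letters although they have no partner.

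The upstream sequences of the resistin-like pair follow, with capitals on the letters TTCNNNNGAA, the spacing that Stat6 is known to bind. They lie at chr16:48842359-48842550 for Retnla and at chr16:48872358-48872607 for Retnlg, both on the plus strand.
Retnla: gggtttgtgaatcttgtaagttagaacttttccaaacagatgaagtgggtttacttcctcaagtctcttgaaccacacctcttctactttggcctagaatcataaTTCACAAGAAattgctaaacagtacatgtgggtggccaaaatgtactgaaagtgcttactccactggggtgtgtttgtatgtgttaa
Retnlg: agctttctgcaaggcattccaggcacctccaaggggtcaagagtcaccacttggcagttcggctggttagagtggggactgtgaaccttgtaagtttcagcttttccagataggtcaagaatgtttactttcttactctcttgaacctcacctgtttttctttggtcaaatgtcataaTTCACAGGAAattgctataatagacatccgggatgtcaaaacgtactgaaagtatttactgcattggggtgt
The pair matched at 76.7% of 176 aligned bases, and each holds the motif once. TTCNNNNGAA reads the same on both strands as a pattern. It was present in 2 of the 6 windows that reach from 250 bases before to 50 bases after the RefSeq start (Retnla, 145 bases before the start, and Retnlg, 72 bases before it), and in 6.95% of all 32851 such windows. The letters TATAAA, searched on both strands, were present in 4 of the 6 windows (Chia1, Chil3, Chil4 and Retnla) and in 13.6% of all windows. They began 43, 31 and 30 bases before the RefSeq start in Chia1, Chil4 and Retnla. In Chil3 they began 3 bases before it and so ran across the start. The GENCODE start of Chil4 lies before its RefSeq start, and TATAAA began 3 bases before that GENCODE start too. The upstream sequences of both copies shown above end in its first letters, tat. In Chia1 and Retnla the GENCODE start lies ahead of TATAAA. These distances thus depend on the start that is annotated, and no difference between Chil3 and Chil4 is read from them.

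The libraries held 13071262 to 16480006 counts in all, with at least 1 count for 25868 to 26885 entries. Levels are given as CPM, the counts of a gene scaled to 1000000 counts of its library, with library totals adjusted by TMM, a factor that balances composition between libraries. Scgb3a2 was at 251 ± 41.2 CPM (SD, n = 4) with the gene intact and at 1.72 ± 0.83 CPM (SD, n = 3) without it, which matched every label. WT6 and KO5 stood apart from the other 5 libraries on the leading principal component (37.5% of the variance, scores of 36.4 and 50.03 against -29.3 to -6.17), and the fold change of each member is also given without this pair. The lung labels matched the marker lists, since the alveolar type 2 cell list (16 genes) summed to between 20670 and 25140 CPM in wild type libraries and between 19150 and 24300 CPM in the knockout ones. In whole tissue, more cells of a type and more RNA per cell cannot be told apart.

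In wild type lung the 6 genes spanned a wide range of levels. Per exonic length (RPKM, the CPM of a gene divided by its exonic length in kilobases), Chil1 was highest at 204 ± 33.2, followed by Chil3 at 163 ± 30.3, Retnla at 25.7 ± 3.97, Chia1 at 20.1 ± 2.10, Retnlg at 1.21 ± 0.31 and Chil4 at 0.056 ± 0.040 RPKM (SD, n = 4). Chil1 overlapped Chil3 between libraries, and Retnla overlapped Chia1, so that the order within these pairs lies inside their spread. Every other step in the order was free of overlap. When the length of the principal transcript was used in place of all exonic bases, Chil1 (340 ± 55.1 RPKM) no longer overlapped Chil3 (173 ± 32.1 RPKM). Chil3 was 2929-fold above its near copy Chil4 per exonic length and 1697-fold above it per length of the principal transcript. Both folds rest on 1 to 4 Chil4 counts per wild type library, so that their size is rough. Chil1 and Chil3 together made up 91.3% to 94.4% of the summed CPM of the 6 genes in every library, and the 6 genes took 0.0816% to 0.115% of all counts.

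**Figure D1:**
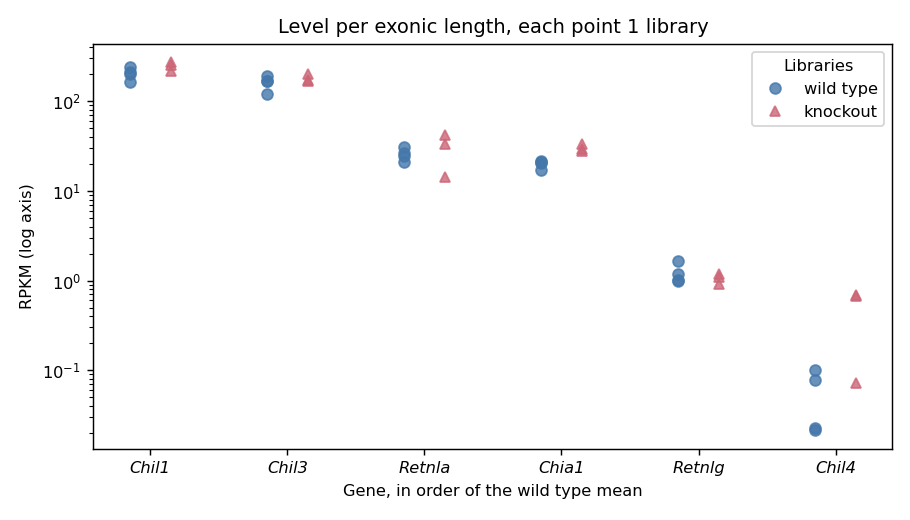
Level of each gene per exonic length in RPKM on a log axis, with 1 point per library, circles for the 4 wild type and triangles for the 3 knockout libraries. Chil1 and Chil3 lie near the top at means of 204 and 163 RPKM in wild type, and Chil4 lies lowest, with 2 of 3 knockout points above the wild type points.

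Among the wild type libraries, Chil1 and Chil3 varied more than the median gene of like level, and Chia1 and Retnla varied close to it. The coefficient of variation was 10.5% for Chia1, 16.2% for Chil1, 18.6% for Chil3 and 15.4% for Retnla, against medians of 11.3%, 11.8%, 10.7% and 13.6% over all tested genes within 2-fold of the same wild type level. Retnlg (25.4% against 35.6%) rested on 8 to 14 counts per library. Among the knockout libraries, Retnla had a coefficient of variation of 47.6%, the largest of the 5 tested members.

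In knockout lung, Chia1 was the 1 member whose libraries all lay above the wild type ones, Chil4 was high in 2 of 3 knockout libraries, and Chil1, Chil3, Retnla and Retnlg overlapped between genotypes. Of the 6 members, 5 passed the filter on low counts and Chil4 did not. With edgeR's quasi-likelihood test, 0 of these 5 were called at an adjusted p under 0.05, against 7 of 19832 genes (0.0353%), and 1 had an unadjusted p under 0.05, against 2.87% of all genes. DESeq2 called 1 member, Chia1, against 0.237% of all genes. Since the members were chosen with this contrast known, nothing is read from these counts.

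**Figure D2:**
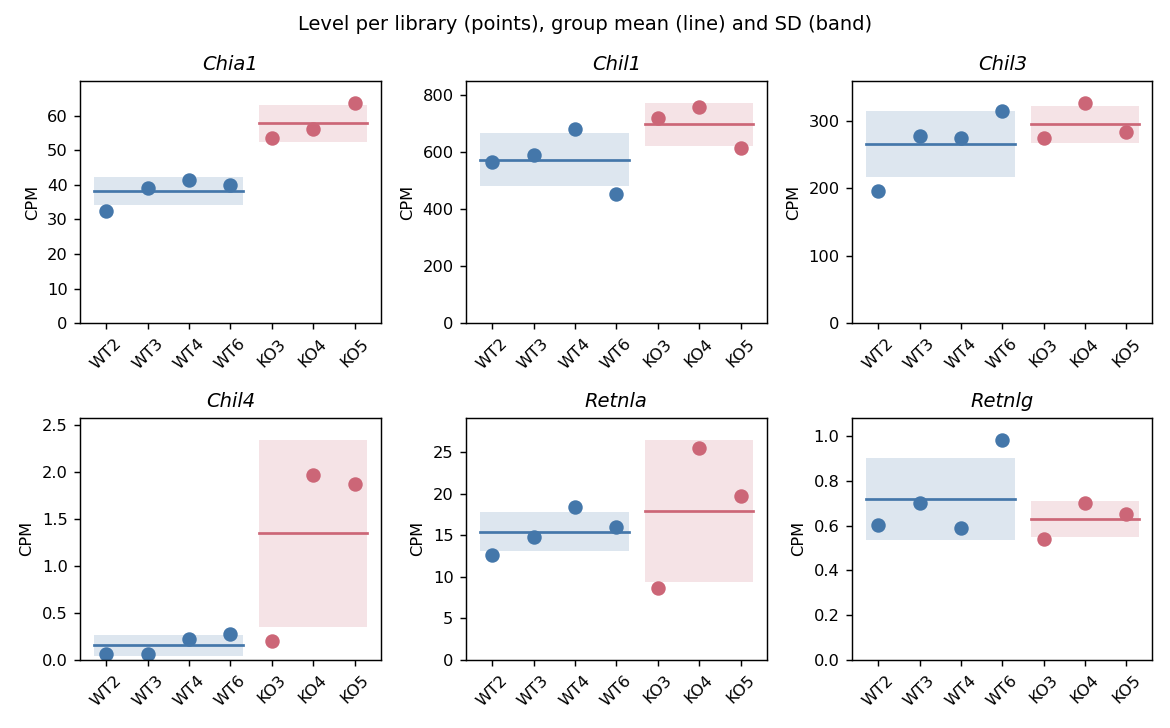
CPM of each gene in the 7 libraries, with points for libraries, lines for group means and bands for 1 SD (n = 4 wild type, n = 3 knockout). The Chia1 points of the knockout libraries (53.6 to 63.6 CPM) all sit above the wild type points (32.4 to 41.4 CPM), while Chil4 has 2 high knockout points and 1 within the wild type range.

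Chia1, the chitin-cleaving enzyme, was at 32.4, 39.2, 41.4 and 40.0 CPM in WT2, WT3, WT4 and WT6, against 53.6, 56.0 and 63.6 CPM in the knockout libraries KO3, KO4 and KO5. The lowest knockout library stood clear of the highest wild type library, and WT2 was lowest of all. The means were 38.3 ± 4.01 and 57.7 ± 5.23 CPM (SD, n = 4 and n = 3), a ratio of 1.51. The fitted log2 fold change was 0.59 ± 0.11 (SE). It was 0.54 ± 0.12 without WT6 and KO5, and 0.52 to 0.64 with each library left out in turn. Chia1 was the only tested member without overlap in either direction, and 2.11% of all genes had every knockout library above every wild type library (1.61% below). Airway secretory cells and alveolar type 2 cells are known sources of Chia1 in mouse lung. The club and airway secretory cell list (18 genes) summed to between 16340 and 22330 CPM in wild type libraries and between 13770 and 22180 CPM in the knockout ones, with the lowest sums in WT6 and KO5. The sums are mostly Scgb1a1, the main club cell secretoglobin, whose means were 12290 ± 2786 CPM with Scgb3a2 intact and 11190 ± 3931 CPM without it (SD, n = 4 and n = 3), and they overlapped between genotypes. Single genes of the list lay apart, with none called by edgeR. The antimicrobial protein gene Bpifa1 was at 82.1 to 594 CPM in wild type libraries and at 12.8 to 74.9 CPM in the knockout ones (log2 fold change -2.60 ± 1.14), and Pon1 (-0.39 ± 0.18) also had all knockout libraries below the wild type ones. The secretoglobin Scgb3a1 (0.61 ± 0.25) and the lectin Reg3g (2.48 ± 1.05) had positive values with overlapping libraries. The part of airway secretory cells in the Chia1 values was not tested. Stomach is a further known source of Chia1, and the 9 stomach and salivary gland markers in the table summed to between 12.3 and 19.5 CPM in wild type libraries and between 13.2 and 17.1 CPM in the knockout ones. The mucin Muc6 (7.24 ± 1.84 and 7.65 ± 0.39 CPM), the amylase Amy1 (4.49 ± 0.86 and 3.55 ± 0.94 CPM) and the pepsinogen Pgc (2.07 ± 0.76 and 2.81 ± 1.56 CPM) were present, whereas Gkn1 and Pga5 had no count in any library. The part of these cells in the Chia1 values was not tested.

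Chil1, which binds chitin without cutting it and is made by macrophages and epithelial cells, was at 567, 590, 682 and 456 CPM in WT2, WT3, WT4 and WT6, against 719, 761 and 615 CPM in the knockout libraries KO3, KO4 and KO5. KO5 fell between wild type libraries, and the lowest value of each genotype came from the pair that stands apart, WT6 and KO5. The means were 574 ± 93.0 and 698 ± 74.9 CPM (SD, n = 4 and n = 3), with a log2 fold change of 0.28 ± 0.14 (SE). It was 0.28 ± 0.11 without that pair. Leaving out WT6 alone gave 0.19 ± 0.13.

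Chil3, the alveolar macrophage lectin, was at 197, 277, 275 and 314 CPM in WT2, WT3, WT4 and WT6, against 275, 326 and 284 CPM in the knockout libraries KO3, KO4 and KO5. WT2 was the low library, and the other 6 overlapped. The means were 266 ± 49.4 and 295 ± 27.7 CPM (SD, n = 4 and n = 3), with a log2 fold change of 0.15 ± 0.15 (SE). That value was 0.03 ± 0.12 without WT2, 0.07 ± 0.17 without KO4, and 0.27 ± 0.15 without WT6 and KO5. Adding the counts of Chil4 to those of Chil3 gave 0.16 ± 0.15. Alveolar macrophage markers had values on both sides of 0. Their 15 tested genes had a median log2 fold change of 0.08, against -0.01 over all genes, and 0 were called. Examples were the lectin receptor Siglecf (10.2 ± 1.05 CPM in wild type against 10.3 ± 1.86 CPM in knockout lung) and the scavenger receptor Marco (9.60 ± 2.22 and 12.4 ± 3.72 CPM). The summed markers lay between 499 and 561 CPM in wild type libraries and between 460 and 609 CPM in the knockout ones.

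Chil4, the near copy of Chil3 that is known for its induction in allergic airway epithelium, had 1, 1, 3 and 4 counts in WT2, WT3, WT4 and WT6 and 3, 31 and 26 counts in KO3, KO4 and KO5. KO4 and KO5 were high, and KO3 lay within the wild type libraries. In CPM these were 0.060 to 0.281 in wild type and 0.202, 1.97 and 1.88 in the knockout libraries. Over each group this makes 9 counts against 60, a ratio of 9.02 after scaling, with a 95% interval of 4.45 to 20.7 that covers counting error only. The gene did not pass the filter on low counts with all 7 libraries. A fit without the filter gave a log2 fold change of 3.09 ± 0.73 (SE), 3.23 ± 0.85 without WT6 and KO5, and 2.69 to 3.60 with each library left out in turn. With all 7 libraries it was not called in the unfiltered fit, which called 0.0354% of genes.

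The share of Chil4 in the reads of both copies does not depend on scaling between libraries. Chil4 made up 0.031%, 0.023%, 0.081% and 0.089% of the reads of both genes in WT2, WT3, WT4 and WT6. The share was 0.074% in KO3 (95% exact binomial interval 0.015% to 0.215%), 0.600% in KO4 (0.408% to 0.850%) and 0.658% in KO5 (0.430% to 0.963%). The intervals of KO4 and KO5 lay above that of every wild type library (highest bound 0.235%), and the interval of KO3 overlapped all of them. These intervals cover counting error only.

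**Figure D3:**
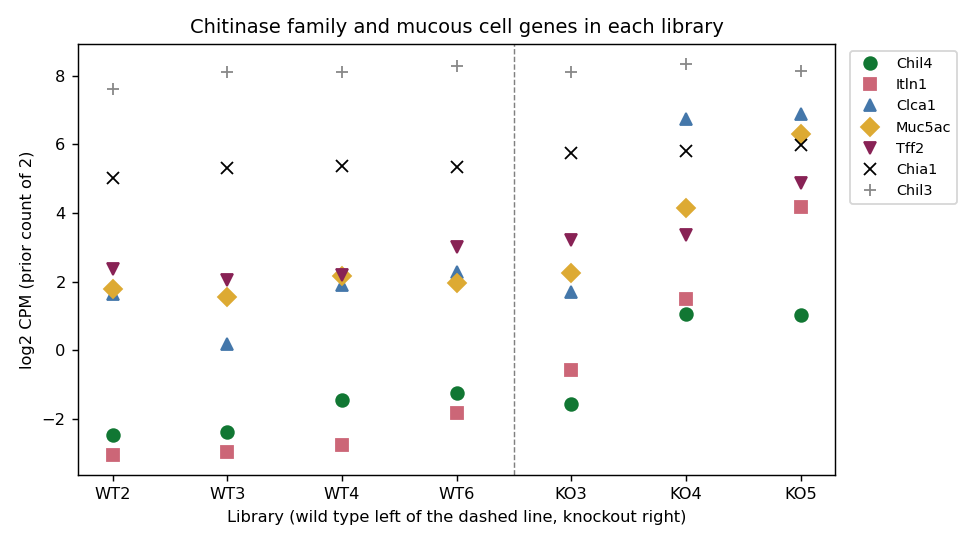
Log2 CPM (with a prior count of 2) of Chil4, Chia1, Chil3 and 4 mucous cell genes in each library, wild type left and knockout right of the dashed line. Chil4 and Clca1 are high in KO4 and KO5 and lie within the wild type range in KO3, and Chil3 lies between 7.62 and 8.35 in all 7 libraries.

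Goblet and mucous cell genes were the list with the largest positive median, and they are set beside Chil4 because both are known products of airway epithelium under type 2 cytokines. All 8 tested genes had a positive log2 fold change, with a median of 1.15 against -0.01 over all genes, although that of the transcription factor Spdef was only 0.001 ± 0.53. The median was 0.50 without KO5, 0.73 without WT6 and KO5, and 1.38 and 1.66 without WT6 and without KO3. None was called by edgeR (0.0353% of all genes were), and 5 had an unadjusted p under 0.05, against 2.87% of all genes. DESeq2 called Clca1 and Tff2, against 0.237% of all genes. Since the list was chosen with earlier results known, nothing is read from these counts. Clca1, a secreted regulator of mucus, ran from 1.02 to 4.70 CPM in wild type libraries, and its knockout values were 3.10 CPM in KO3, 108 CPM in KO4 and 117 CPM in KO5. The gel-forming mucin Muc5ac ran from 2.80 to 4.36 CPM in wild type libraries, with 4.66 CPM in KO3, 17.7 CPM in KO4 and 79.0 CPM in KO5. The trefoil peptide Tff2 was at 4.02 to 7.93 CPM in wild type and 9.17, 10.1 and 29.0 CPM in the knockout libraries. Itln1, an intelectin that binds microbial sugars and is made by mucous cells, did not pass the filter, and it had 0, 0, 0 and 2 counts in WT2, WT3, WT4 and WT6, 8 in KO3, 42 in KO4 and 247 in KO5. The ratio of its summed counts was 201, with a 95% counting interval of 55.2 to 1667. In each of Clca1, Muc5ac, Tff2 and Itln1, KO3 was the lowest knockout library. The same held for every member except Chil1, so that this order is not particular to Chil4 and Chia1. KO5 was highest in these mucous cell genes and in Chia1, whereas for Chil4 KO4 and KO5 were nearly equal. The part of mucous cell number in the Chil4 and Chia1 values was not tested.

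Retnla, a secreted product of alternatively activated macrophages and epithelium, was at 12.6, 14.7, 18.3 and 16.0 CPM in WT2, WT3, WT4 and WT6, against 8.64, 25.4 and 19.7 CPM in the knockout libraries KO3, KO4 and KO5. The knockout libraries enclosed the wild type ones, with KO3 below all of them and KO4 and KO5 above. The means were 15.4 ± 2.38 and 17.9 ± 8.53 CPM (SD, n = 4 and n = 3), with a log2 fold change of 0.22 ± 0.31 (SE). The sign rested on single libraries, since the value was -0.12 ± 0.29 without KO4 and 0.55 ± 0.18 without KO3. It was 0.17 ± 0.54 without WT6 and KO5. White fat is a further known source of Retnla. The 12 adipocyte markers, a list not limited to white fat, summed to 378 CPM in WT6, against 80.7 to 102 CPM in WT2, WT3 and WT4. Retnla in WT6 (16.0 CPM) lay between WT3 and WT4. The part of fat cells in the Retnla values was not tested. The median log2 fold change of the adipocyte list, -1.17 with all libraries, rested on WT6. It was 0.01 without WT6 and -0.47 without WT6 and KO5. Retn, which encodes resistin and is made by fat cells in mice, had 9, 9, 6 and 34 counts in WT2, WT3, WT4 and WT6 and 4, 10 and 11 counts in KO3, KO4 and KO5, and was too low to be tested.

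Retnlg, the neutrophil member, was close to the limit of detection with 10, 11, 8 and 14 counts in WT2, WT3, WT4 and WT6 and 8, 11 and 9 counts in KO3, KO4 and KO5. The genotypes overlapped, and WT6 was highest. Its levels were 0.72 ± 0.18 and 0.63 ± 0.08 CPM (SD, n = 4 and n = 3), with a log2 fold change of -0.18 ± 0.38 (SE). That difference was -0.003 ± 0.42 without WT6 and -0.02 ± 0.53 without WT6 and KO5, so that none was detectable at this depth. Neutrophil markers were low too. Ly6g had 1 count in all libraries together, and the calprotectin gene S100a8 was at 2.29 ± 0.52 and 2.76 ± 0.74 CPM. The median log2 fold change over 12 tested neutrophil genes was 0.25, with 0 called by edgeR. An unadjusted p under 0.05 was found for 1 (Hdc, which makes histamine, at -0.35), against 2.87% of all genes.

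**Figure D4:**
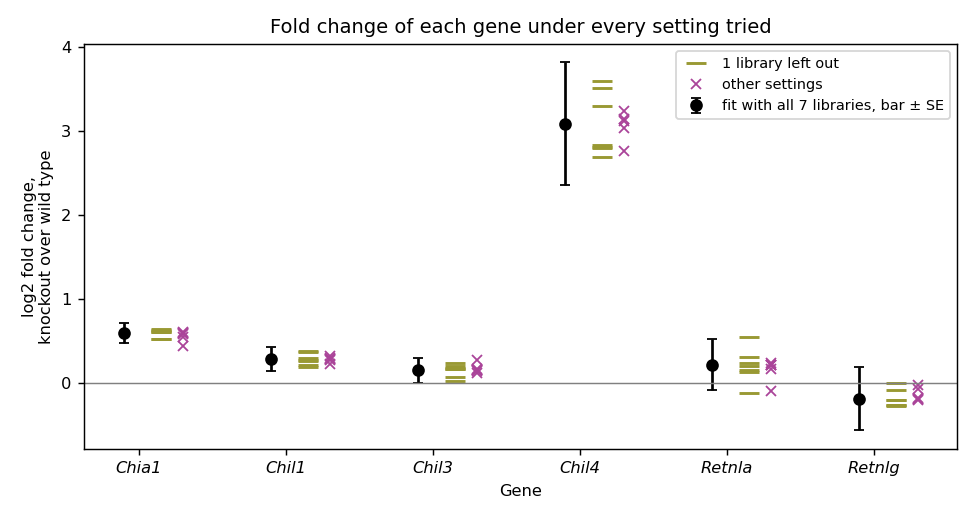
Log2 fold change of each gene, knockout over wild type, in the fit of all 7 libraries (black, bar ± SE), with 1 library left out (dashes) and under the other settings (crosses), Chil4 being fitted without the filter on low counts. Chia1, Chil1, Chil3 and Chil4 stay positive under every setting drawn, Retnlg stays negative, and Retnla falls to -0.12 without KO4.

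The cytokines and receptors that drive these genes in type 2 inflammation were measured at the same time. The list of type 2 cytokines, receptors and Stat6 (14 tested genes) had a median log2 fold change of 0.02. None was called, and 2 had an unadjusted p under 0.05, against 2.87% of all genes. These were the cytokine receptor chains Il7r (0.43 ± 0.16) and Il1rl1 (-0.41 ± 0.18), which went in opposite directions. Il4 was at 1.499 ± 0.088 CPM in wild type against 1.47 ± 0.24 CPM in knockout lung. Its receptor chain Il4ra (155 ± 27.1 and 157 ± 6.91 CPM) and the transcription factor Stat6 (149 ± 8.54 and 152 ± 3.67 CPM) had overlapping libraries too. Il13 was too low to be tested, with 3, 5, 5 and 1 counts in the wild type and 3, 3 and 5 counts in the knockout libraries, where a difference would not have been detectable at this depth. Il5 had 6 to 8 counts per wild type library and 7 to 13 per knockout library.

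Genes that mark alternatively activated macrophages alongside Chil3 and Retnla showed no common direction. Over 14 tested genes the median log2 fold change was 0.01, with 7 positive and 0 called by edgeR. An unadjusted p under 0.05 was found for 3, against 2.87% of all genes. The lectin Clec10a (2.30 ± 0.71 and 4.40 ± 1.26 CPM, log2 fold change 0.94 ± 0.29) had all knockout libraries above the wild type ones, and the chemokine Ccl8 (1.46 ± 0.46) overlapped. The related lectin Mgl2 had a value of -0.42 ± 0.16. Arg1, the arginase of this macrophage state, was at 1.69 ± 0.21 and 1.37 ± 0.36 CPM, and the mannose receptor Mrc1 at 151 ± 18.2 and 153 ± 14.6 CPM. Eosinophil markers were almost absent, with 4 of 6 in the table, none passing the filter, and sums between 0.481 and 1.47 CPM in wild type libraries and between 0.877 and 1.52 CPM in the knockout ones.

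No other relative or binding partner of these proteins was called by edgeR. Of the other chitinase family genes, 4 were tested, with log2 fold changes of -0.04 to 0.27. They were Chil5 (4.48 ± 1.17 and 4.77 ± 1.21 CPM), Ovgp1 of the oviduct (1.81 ± 0.41 and 2.18 ± 0.49 CPM), the lysosomal chitobiase Ctbs (21.1 ± 2.13 and 20.5 ± 2.58 CPM) and Chid1 (34.5 ± 5.77 and 33.9 ± 8.14 CPM). Chil6 had 0 to 2 counts per library. Among 9 tested receptors and binding partners the median log2 fold change was -0.02, and 0 had an unadjusted p under 0.05. The Chil1 partner Tmem219 was at 9.65 ± 1.30 and 9.39 ± 0.72 CPM, the chitin-responsive receptor Tlr2 at 19.1 ± 1.29 and 21.9 ± 3.27 CPM, and the kinase Btk, which binds RELM-alpha, at 7.93 ± 1.25 and 10.7 ± 3.69 CPM with KO5 highest at 14.96 CPM. Over all 14 lists, 128 genes were tested, 0 were called by edgeR (0.0353% of all genes were), and 15 (11.7%) had an unadjusted p under 0.05 against 2.87% of all genes. These lists were chosen with earlier results known.

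**Figure D5:**
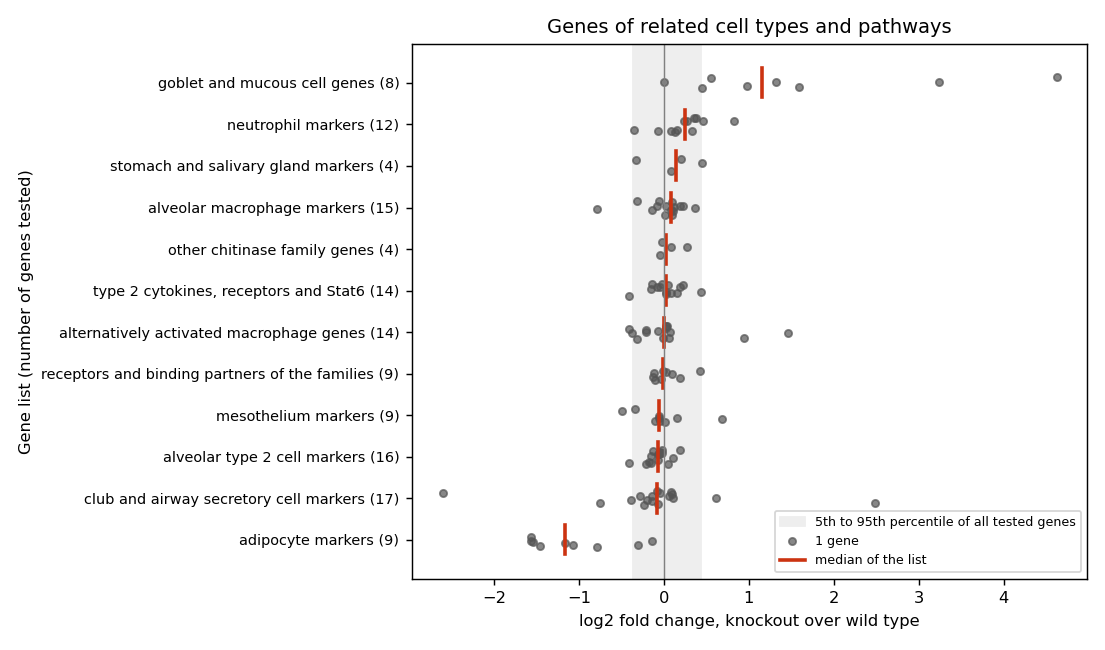
Log2 fold change of each tested gene (points) in 12 lists of related cell types and pathways, with the list median (bar) and the 5th to 95th percentile of all tested genes (grey, -0.37 to 0.43). The goblet and mucous cell list has the highest median at 1.15 and the adipocyte list the lowest at -1.17 (0.01 without WT6), and the macrophage and type 2 cytokine lists lie near 0.

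No tested neighbour of the members was called. Within 100 kb of the members, 9 other genes were tested, and 0 were called by edgeR or had an unadjusted p under 0.05. None had all knockout libraries on 1 side. Of all genes, 2.87% had such a p, and 2.11% and 1.61% had every knockout library above or below. On chromosome 3 their log2 fold changes ran from -0.53 to 0.17, with Chil5 at 0.09 ± 0.25 (80.4 kb from Chia1) and the cilium gene Pifo at 0.02 ± 0.30. Next to Chil1, the adenosine receptor Adora1 was at 7.90 ± 3.93 and 11.1 ± 4.64 CPM (0.50 ± 0.41). Dzip3, 49.7 kb from Retnlg, had a value of -0.08 ± 0.13.

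Genes whose log2 CPM followed each tested member most closely over the 7 libraries were sought among 11648 other genes of at least 5 CPM, as a description, since all values share the same libraries and scaling. For Chia1 they were the interferon-induced gene Ifitm1 (Pearson r = 0.96, Spearman rho = 0.96) and the immunoglobulin segments Ighv1-72 (0.96 and 0.89) and Igkv8-21 (0.96 and 0.86). The segments reached 5 CPM only through the knockout libraries, so that nothing is read from their match. Ighv1-72 was at 0.060 to 0.772 CPM in wild type and 3.37, 17.5 and 58.6 CPM in the knockout libraries. Igkv8-21 was at 0 to 0.191 CPM in wild type and 8.43, 32.3 and 103 CPM in the knockout libraries. Ifitm1 was at 17.6, 22.6, 28.1 and 20.6 CPM in WT2, WT3, WT4 and WT6, against 31.7, 33.9 and 42.1 CPM in the knockout libraries KO3, KO4 and KO5. For Chil1 they were Igsf9b (r = 0.99, rho = 0.96), Mta2 (0.97 and 0.96) and the complement gene C1qa of macrophages (0.96 and 0.96). For Chil3 they were Fam110b (r = 0.98, rho = 0.86), Ahcyl1 (0.98 and 0.68) and the ribosomal gene Rpl31 (0.96 and 0.93). For Retnla they were the lymphocyte cytokine Il7 (r = 0.97, rho = 0.89), Nprl2 (0.97 and 0.96) and Rab22a (0.95 and 1). For Retnlg they were Mettl2 (r = 0.98, rho = 0.93), Appbp2 (0.97 and 0.89) and Pdcd6ip (0.97 and 0.79). No member was among the 3 genes closest to another member, although Retnlg and Chil4 lay below 5 CPM and could not appear there.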

How the data were processed

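Lung RNA was extracted with Trizol and sequenced from 4 wild type and 3 knockout libraries, per the labels' protocols. The deposited values are whole-number counts per gene symbol, not normalized. STAR, DESeq2 and mm10 appear, with no version or role, in the submitters' processing notes. The counting program, its annotation and its strand setting were not given in the sources used here.

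Totals ran from 13071262 to 16480006 counts, so that 3 counts correspond to 0.18 to 0.222 CPM. Counts were fitted with edgeR 4.0.16 in R 4.3.3 over the whole table (filter on low counts by genotype, 19832 genes kept, TMM, robust quasi-likelihood test, two-sided, Benjamini-Hochberg adjustment, threshold 0.05). SE is the absolute log2 fold change divided by the root of the F statistic. DESeq2 1.42.0, library totals in place of TMM, no filter, a replicate block, a term for WT6 and KO5, and leaving out libraries were tried. Log2 CPM uses a prior count of 2. RPKM uses all exonic bases in GENCODE M21. Sequences were aligned with Biopython 1.88. On counts simulated for this comparison (19360 genes tested), the fit called 40, 49, 36 and 47 of 50 genes each at true folds of 2, 4, 0.5 and 0.25. These folds were set among genes that were not low, and 11 of its 183 calls were on unchanged genes. The counts were drawn for each gene independently, without the shared shift of WT6 and KO5. These rates therefore need not hold for the libraries themselves.

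The members and gene lists were chosen with earlier results of these data known. Named are the members, Scgb3a2, up to 3 genes of smallest p per list, the 3 genes most like each member and neighbours within 100 kb. Muc5ac, Itln1, Il4, Il4ra, Stat6, Il13, Il5, Siglecf, S100a8, Ly6g, Arg1, Mrc1, Chid1, Chil6, Retn, Gkn1, Pga5, Muc6, Spdef, Bpifa1, Reg3g, Scgb1a1 and Tmem219 were named after their values were seen.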

Additional observations from a re-analysis of the deposited data

Results flagged for a closer look

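Among 41 genes of the text checked over the 4 wild type libraries, 3 had WT6 far from the other 3 libraries, by a gap that chance gives in about 1 in 20 groups. With 41 genes checked, a few such gaps would arise at that rate alone, and the genes are not independent since they share WT6. The 3 genes are of fat or of the lung surface, and no chitinase or resistin-like gene was among them. The fat cell gene Cidea was at 6.18 CPM in WT6 against 0.601 to 0.739 CPM in WT2, WT3 and WT4. The lipid droplet gene Plin1 was at 14.0 CPM against 1.40 to 3.07 CPM, and mesothelin (Msln) at 55.2 CPM against 12.3 to 19.4 CPM.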

How the results depend on the processing

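The number of genes called over the whole table was 7 with all libraries, 47 with DESeq2, 29 with a term for WT6 and KO5, 14 without both, and 3 to 41 with each library left out in turn (3 without WT2, WT3 or WT4, 41 without KO3). The count of members called was 0, and became 1 with DESeq2 and 1 with the term (Chia1 in both), and 0 to 1 with each library left out. The 1 was Chil4 without KO3, which then passed the filter on low counts only through KO4 and KO5, so that nothing is read from this call. Of the context list genes, 0 were called in the fit of all libraries, 2 with DESeq2 (Clca1 and Tff2), 3 with the term (Bpifa1, Plin1 and Tff2), 1 without both libraries (Bpifa1), and 0 to 1 with each library left out (Clca1, without KO3). The numbers 3 and 4 occur in both genotypes, and a fit with a replicate block on the numbers was tried. In it only WT3 with KO3 and WT4 with KO4 form pairs. WT2, WT6 and KO5 each have a number of their own and hold no information on its fold changes. It called 140 genes, 1 member (Chia1) and 6 list genes. Resting on 2 pairs, it leaves almost no spread from which to estimate error, so that nothing is read from these calls. Deviations of same-numbered libraries correlated at 0.238 and 0.202 over genes, and with only 2 such pairs and no label that ties them the libraries share only a number. Retnla had a negative value in 2 of 13 settings (without KO4 and with the block, -0.09), and the other members kept their sign in every setting in which they were fitted. Using the principal transcript in place of all exonic bases, chosen after seeing the data, raised the wild type level of Chil4 from 0.056 to 0.102 RPKM. Depth limits Chil4, Retnlg, Retn, Il13 and Itln1, whose counts were near the floor in some libraries. The cause of these differences between settings was not tested.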
